A study of Mus musculus with 8 samples.

Results

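Levels of 62 genes for axon guidance ligands and receptors were followed in mouse astrocyte cultures. They were all genes whose symbol belongs to the semaphorin, plexin, neuropilin, ephrin, Eph, Slit, Robo, netrin or Unc5 families and whose level reached 1 TPM (a transcript level scaled to transcript length, with the same total in each library) in at least 2 of 8 libraries. Of 68 such symbols, 62 passed. The 62 were 19 semaphorins, 9 plexins, 2 neuropilins, 5 A-type and 3 B-type ephrins, 6 EphA and 5 EphB receptors, 3 Slits, 3 Robos, 4 netrins and 3 Unc5 receptors, among 14904 genes that passed the same level out of 23420 in the files. Slit1 and Robo4 reached 1 TPM in 2 libraries and Unc5a in 3, just inside the limit. Robo3, with a highest value of 0.873 TPM, Sema3g with 0.487 and Unc5d with 0.453 lay just outside it, and Epha6, Epha8 and Epha10 were lower still. The 2 libraries of Slit1 were both MGS day 32 and those of Robo4 both MGS day 5, where each was then called higher. Ntn5 and Plxnb3 reached 1 TPM in MGS libraries only. These genes passed through the groups where they were high, so their calls are partly set by the filter. They stay in the counts below.

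The libraries came from mouse astrocytes grown in MGS or by a conventional method (CV) for 5 or 32 days, with 2 libraries in each of the 4 groups. The labels do not spell MGS out, and its libraries also carry the word Soft and the CV libraries the word Hard. The sources used here do not give strain, age, brain region or any way of purifying the cells, nor whether the 2 libraries of a group came from separate cultures, and p-values therefore reflect library-to-library spread that may be technical only. The questions addressed were how the guidance genes differed between the cultures at each day, how they moved with time in each culture, and whether the difference between cultures changed with time.

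Guidance ligands are read by receptors on the cell surface that steer the cytoskeleton through small GTPases, so that a growing axon or a migrating cell is drawn on or turned away. Class 3 semaphorins are secreted and bind neuropilins paired with plexins, while most other semaphorins stay on the membrane and bind plexins directly. A-type ephrins are tethered by a lipid anchor and B-type ephrins cross the membrane, and both signal to Eph receptor tyrosine kinases on a touching cell and back into their own cell. Slits repel through Robo receptors, and netrins attract or repel depending on the receptor, with Unc5 receptors mediating repulsion. Astrocytes express members of all of these families, at synapses and at the borders of lesions.

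The upstream sequences of 4 members are shown because these had the largest changes at day 5, in each direction, among members with an entry in the sequence table, that kept 1 direction at both days under every scaling tried. Ntn5 and Sema6c were higher in MGS, and Epha2 and Sema3e were lower. Each run is the 250 bases before a RefSeq start site in GRCm38.p6, plus strand, at chr7:45683772-45684021, chr3:95160170-95160419, chr4:141300971-141301220 and chr5:14025026-14025275 in that order, and capitals mark matches to the motifs named after them. Sema6c has 2 promoters listed, of which only the first is shown.

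Ntn5: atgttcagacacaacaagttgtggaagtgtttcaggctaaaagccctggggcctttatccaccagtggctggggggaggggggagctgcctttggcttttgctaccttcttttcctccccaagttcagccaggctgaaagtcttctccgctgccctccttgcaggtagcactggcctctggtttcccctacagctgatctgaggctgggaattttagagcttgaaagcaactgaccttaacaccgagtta
Sema6c: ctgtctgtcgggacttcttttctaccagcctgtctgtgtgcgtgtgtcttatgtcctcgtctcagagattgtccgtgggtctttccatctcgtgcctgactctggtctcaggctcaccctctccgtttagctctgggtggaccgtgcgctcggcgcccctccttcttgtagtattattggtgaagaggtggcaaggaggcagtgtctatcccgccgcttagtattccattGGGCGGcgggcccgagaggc
Epha2: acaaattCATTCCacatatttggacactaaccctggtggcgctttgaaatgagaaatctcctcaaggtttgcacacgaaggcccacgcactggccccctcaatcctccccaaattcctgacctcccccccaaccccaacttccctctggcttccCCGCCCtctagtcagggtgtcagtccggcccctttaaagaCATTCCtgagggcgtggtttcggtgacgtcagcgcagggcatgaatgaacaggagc
Sema3e: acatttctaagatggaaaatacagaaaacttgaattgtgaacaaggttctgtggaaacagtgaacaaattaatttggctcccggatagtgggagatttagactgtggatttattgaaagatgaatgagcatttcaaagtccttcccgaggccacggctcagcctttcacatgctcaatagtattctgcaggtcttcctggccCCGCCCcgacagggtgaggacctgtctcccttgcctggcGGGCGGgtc

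Capitals mark a GC box (GGGCGG, or its reverse complement) in Sema6c, in Epha2 and at both places in Sema3e, and the TEAD-type motif GGAATG, read here on the other strand, at 2 places in Epha2. The start used for Ntn5 lies 5′ of its row in the files. On both strands, GGGCGG occurred in 68.6% of 70 promoters of 54 members and in 32.7% of all 32851 promoters in the table. GGAATG was found in 11.4% against 12.6%, the AP-1 motif TGANTCA in 4.29% against 6.75%, and TATAAA in 2.86% against 12.4%. The median number of CpG pairs per 250 bases was 15.5 in the members' promoters and 6 in all promoters. These are matches of letters in a fixed window, given as description, and among the 4 runs shown no match overlapped another.

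Aligned sequence ranged from 2.15 to 4.69 gigabases per library and was lower in each CV library than in each MGS library. The 2 libraries of CV at day 32 stood furthest apart. There, replicate 1 was below replicate 2 in 57 of 62 members, with a median log2 difference of -0.56, against medians of -0.011 to -0.082 in the other groups. Summed markers of astrocytes lay at 17010 to 17210 TPM in MGS and 3500 to 3692 in CV at day 5, and at 13940 to 13970 and 1473 to 1891 at day 32, so the labelled cell type was present in every library. Gfap held most of these sums in MGS, at 13720 and 13740 TPM at day 5 and 9571 and 9605 at day 32. Of the 10 markers, 6 were called higher in MGS and 1 lower at day 5, and 9 and 1 at day 32. The lower one at both days was Aldh1l1, at 257 and 251 TPM in MGS against 429 and 391 in CV at day 5. Markers of other cell types moved with the groups too. Microglia markers summed to 364 to 370 TPM in MGS and 88.6 to 105 in CV at day 5, and to 462 to 463 and 3758 to 4088 at day 32. Oligodendrocyte markers summed to 1523 to 1576 against 104 to 112 at day 5 and 1079 to 1098 against 143 to 163 at day 32, with Mog and Opalin at 0 in CV. Meningeal fibroblast markers summed to 5732 to 5889 against 360.4 to 364 and 3387 to 3399 against 293 to 483. Choroid plexus epithelium markers had the largest ratio between the cultures of the lists named here, at 12670 to 17070 against 162 to 166 at day 5 and 2007 to 2022 against 108 to 122 at day 32. Ttr held most of that, at 12450 and 16840 TPM against 110.4 and 101.4 at day 5 and 1878 and 1857 against 78.9 and 65.1 at day 32. Otx2 went the other way at day 5, at 12.9 and 13.6 TPM against 22.7 and 28.7, while 5 of the 6 markers were called higher. Ependyma markers summed to 379 to 389 against 164 to 181 and 1063 to 1088 against 214 to 229, and mural cell markers to 257 to 260.4 against 46.5 to 47.9 and 168 to 175 against 31.3 to 47.5. Oligodendrocyte precursor markers ran the other way at day 5, at 286 to 296 TPM in MGS against 629 to 687 in CV. At day 32 they summed to 422 to 464 against 382 to 408. Neuron markers summed to 92.5 to 100.3 against 191 to 238 at day 5, and to 142 to 146 against 184 to 202 at day 32. At day 5, 3 precursor markers were called higher and 2 lower, and 4 and 3 of the 9 neuron markers tested. In bulk RNA, fewer cells of a type and less RNA per cell cannot be told apart, and the part of these cell types in the changes below was not tested.

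At day 5 the guidance genes were divided between the cultures. Of the 62 members, 21 were higher and 24 lower in MGS than in CV in limma at an adjusted p under 0.05, where 22.5% and 26.4% of all genes tested were called. The ephrin Efnb3, the netrin Ntn5, the semaphorins Sema6c and Sema3d and the plexin Plxnb3 were among the higher ones. The receptor Epha2, the ligands Slit2 and Slit3, Sema3c, Ntn4 and the receptor Unc5b were among the lower ones. Calls held in each of the 20 alternative settings that could be fitted for 15 of the 21 and 17 of the 24, and the exceptions are given with their genes. The matching share of all genes is not given here.

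At day 32 most of the guidance genes were higher in MGS. In TPM, 41 members were higher and 8 lower, where 52.8% and 14.8% of all genes tested were called, and the median log2 change was 1.13 for the members and 0.56 for all genes. That tilt followed transcript length. Across eighths of genes ordered by length, the median log2 change at day 32 rose from -0.15 in the shortest eighth to 1.37 in the longest, and at day 5 it ran from 0.11 to -0.49. Guidance genes are long, with a median longest transcript of 5066.5 bases against 3318 for the genes tested, and 34 of 62 lay in the 2 longest eighths. Once length and GC content were corrected for in each library, 25 members were higher and 25 lower at day 32, where 30.7% and 39.4% of all genes were called, and the median was -0.08 for members and for all genes alike. The 25 lower include Robo4 and Unc5a, which did not exceed 1.08 TPM in any day 32 library, and at such levels the corrected calls are uncertain. At day 5 the corrected counts were 23 higher and 24 lower, where 26.1% and 39% of genes were called. Median-of-ratios scaling of the TPM values gave 32 higher and 14 lower at day 32, where 35.1% and 34.9% were called. Of the 41 members higher at day 32, 25 kept the call after the correction, 6 were called lower and 10 were not called, while all 8 lower members kept theirs. The matching shares of all genes called higher or lower are not given here, so these counts are description only. The corrected value is therefore given wherever it changed a call between the cultures at day 5 or day 32, and no scaling can be taken as the absolute one from these data.

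**Figure D1:**
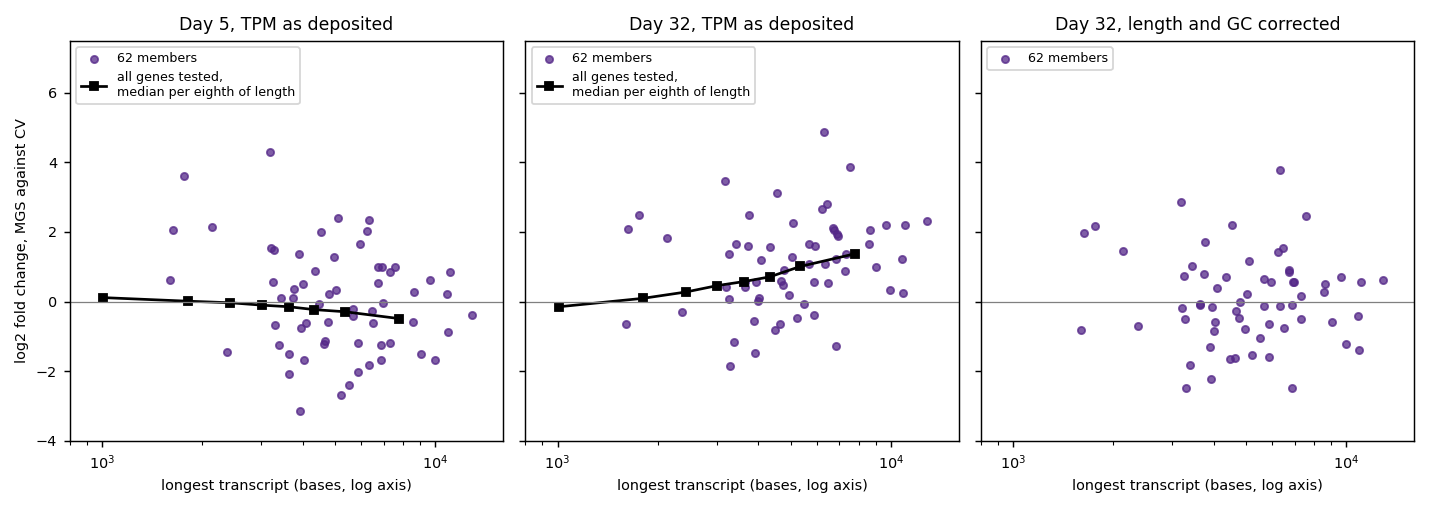
Log2 fold change of MGS against CV (vertical axis, log2(TPM + 1) scale) against the longest transcript of each gene in bases (log axis) for 62 guidance genes (points) and for all genes tested as the median of each eighth of length (black squares), at day 5, at day 32, and at day 32 after the length and GC correction (points alone). At day 32 the black line climbs from -0.15 to 1.37 and the 22 members of the longest eighth have a median of 1.76, while in the right panel the members lie on both sides of 0 with 25 called each way.

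**Figure D2:**
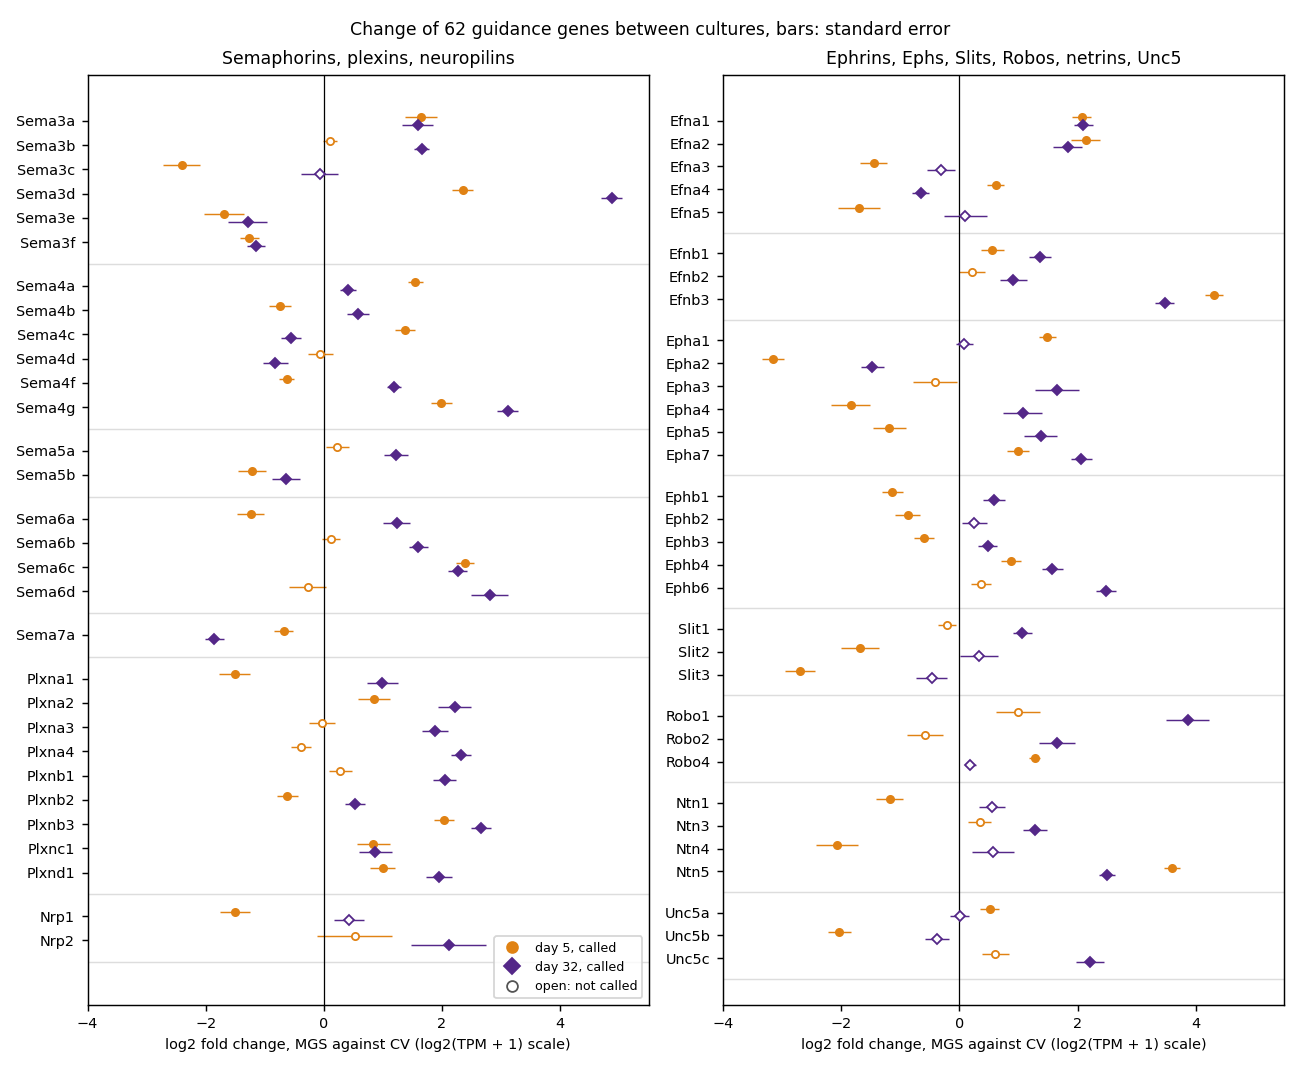
Log2 fold change of MGS against CV with its standard error for each of the 62 members, in TPM as deposited, by family, at day 5 (orange circles) and day 32 (purple diamonds), where filled symbols were called at an adjusted p under 0.05 and open ones were not. Efnb3 and Ntn5 lie furthest right at day 5 and Sema3d at day 32, Epha2 lies furthest left at day 5, and all 9 plexins lie right of 0 at day 32.

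At day 5, MGS had 6 of the 19 semaphorins higher and 8 lower. Sema3d, a secreted class 3 semaphorin, stood at 10.04 and 10.9 TPM in the MGS libraries and 1.01 and 1.51 TPM in the CV libraries, a log2 change of 2.35 (SE 0.18, adjusted p = 4.25e-05). Sema6c, a transmembrane class 6 semaphorin, stood at 15.9 and 15.1 TPM against 2.27 and 2.03 TPM, a log2 change of 2.39 (SE 0.16, adjusted p = 2.15e-05). Sema4g reached 17.3 and 17.7 TPM in MGS and 3.78 and 3.53 TPM in CV, a log2 change of 1.99 (SE 0.18, adjusted p = 9.05e-05). In each of these genes both MGS libraries were several times above both CV libraries. Sema3a, the founding collapse-inducing semaphorin, was at 9.77 and 10.3 TPM against 2.13 and 2.99 TPM, with a log2 change of 1.64 (SE 0.27, adjusted p = 0.00201). Sema4c, a class 4 transmembrane ligand, was at 20.7 and 20.5 TPM against 7.08 and 7.66 TPM, with a log2 change of 1.37 (SE 0.17, adjusted p = 0.00048). Sema4a was the sixth, at 3.37 and 3.39 TPM against 0.541 and 0.454 TPM, and its level stayed under 5 TPM in every library.

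The 8 semaphorins lower at day 5 included 3 of the 6 class 3 genes measured. Sema3c, a secreted ligand that acts through neuropilins, was at 7.23 and 7.13 TPM in MGS and 35.4 and 50.9 TPM in CV, a log2 change of -2.41 (SE 0.31, adjusted p = 0.000618). Sema3e, which binds Plxnd1 directly, was at 1.93 and 1.91 TPM against 6.92 and 10.2 TPM, a log2 change of -1.69 (SE 0.34, adjusted p = 0.00504). Sema3f, a ligand of Nrp2, was at 11.2 and 11.5 TPM against 30.8 and 26.6 TPM, a log2 change of -1.26 (SE 0.16, adjusted p = 0.000502). None of the 3 overlapped between the cultures, which was so in all 24 members called lower at day 5 and is no separate support. Sema6a, a ligand of A-type plexins, had 18.8 and 19.9 TPM against 42.5 and 52.05 TPM and a log2 change of -1.24 (SE 0.23, adjusted p = 0.00361). Sema5b had 10.7 and 11.8 TPM against 27.1 and 27.6 TPM and a log2 change of -1.21 (SE 0.24, adjusted p = 0.00461). Sema4b, Sema4f and Sema7a were lower by less, with log2 changes of -0.75, -0.63 and -0.68. The call of Sema4b was lost without any 1 of the 4 day 5 libraries (adjusted p from 0.0516 to 0.0876), and that of Sema7a without MGS day 5 replicate 1, MGS day 5 replicate 2 or CV day 5 replicate 2 (0.0541 to 0.0907).

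By day 32 the counts were 12 semaphorins higher and 6 lower, and 7 and 8 after the length and GC correction. The gene furthest apart was Sema3d, at 39.9 and 38.6 TPM in MGS against 0.244 and 0.5096 TPM in CV, a ratio of means of 104 and a log2 change of 4.88 (SE 0.18, adjusted p = 1.32e-06). Sema4g followed at 27.7 and 29.9 TPM against 2.01 and 2.96 TPM, with a log2 change of 3.11 (SE 0.18, adjusted p = 7.31e-06). Sema6d, another ligand of A-type plexins, reached 120.2 and 121 TPM against 11.1 and 23.8 TPM, with a log2 change of 2.81 (SE 0.31, adjusted p = 0.000201), although at day 5 it was not called, at 38.8 and 40.2 TPM and 40.7 and 56.2 TPM. For these 3 genes the corrected log2 changes were 3.796, 2.199 and 1.55, still called. Sema6c was at 9.73 and 12 TPM against 1.44 and 1.48 TPM, a log2 change of 2.26 (SE 0.16, adjusted p = 1.87e-05). Sema3b, the most abundant semaphorin in MGS at this day, was at 139 and 148 TPM against 41.2 and 48.98 TPM, a log2 change of 1.65 (SE 0.12, adjusted p = 2.73e-05). Sema6b had 16.8 and 17.5 TPM against 4.699 and 5.29 TPM, with a log2 change of 1.60, and Sema3a had 14.4 and 14.6 TPM against 2.91 and 5.86 TPM, with a log2 change of 1.59.

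The calls of several other semaphorins depended on the scaling. Sema6a was at 31.3 and 30.9 TPM against 9.697 and 16.4 TPM, a log2 change of 1.24 that became -0.089 and was not called after the correction. Sema3c, at 30.6 and 29.6 TPM against 22.3 and 44.9 TPM, was not called in TPM (-0.074) and was called lower after the correction (-1.04). Sema5a, whose longest transcript has 10809 bases, moved from 1.22 to -0.402 and was then called lower. At day 5 Sema5a was called higher only after the correction (0.74). Sema4a, Sema4b and Sema4f had log2 changes of 0.41, 0.57 and 1.19, and corrected values of -0.19, -0.17 and 0.398 that were not called. Without MGS day 32 replicate 1 or 2 the uncorrected calls of Sema4a (adjusted p = 0.0673 and 0.13) and Sema4b (0.0856 and 0.151) were lost as well, and Sema4a was also lost without CV day 32 replicate 2 (0.0638). Sema4b was lost without either MGS day 5 library as well (0.0611 and 0.0612).

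The 6 semaphorins lower in MGS at day 32 kept that call after the correction. Sema7a, a lipid-anchored semaphorin that signals through integrins and Plxnc1, had 4.35 and 4.398 TPM in MGS against 16.5 and 20.5 TPM in CV, a log2 change of -1.85 (SE 0.16, adjusted p = 5.51e-05). Sema3e, at 4.84 and 5.47 TPM against 9.45 and 20.7 TPM, changed by -1.29 (SE 0.34, adjusted p = 0.0113) but missed the threshold when MGS day 32 replicate 1 was left out (adjusted p = 0.0653). Sema3f was at 10.3 and 11.2 TPM against 22.8 and 27.8 TPM and changed by -1.15 (SE 0.16, adjusted p = 0.000553). In these 3 genes, as in all 8 members called lower at this day, the 2 CV libraries lay above both MGS libraries. That order is no separate support, and its share among all genes is not given here. Sema4d, a ligand of Plxnb1, was at 15.3 and 16.8 TPM against 23.8 and 35.6 TPM, a log2 change of -0.82 (SE 0.21, adjusted p = 0.011) that missed the threshold when MGS day 32 replicate 1 was left out (adjusted p = 0.0738). Sema4c stood at 12.5 and 12.1 TPM against 16.1 and 21.4 TPM, the opposite order to day 5, with a log2 change of -0.55 (SE 0.17, adjusted p = 0.0218) that was lost without any 1 of the 4 MGS libraries (adjusted p from 0.0534 to 0.114). Sema5b had a log2 change of -0.64 (SE 0.24, adjusted p = 0.0459), and that call was lost without any 1 of 7 libraries (adjusted p from 0.0708 to 0.209), the exception being CV day 32 replicate 1. All 10 microglia markers were lower in MGS than in CV at this day, and the corrected changes of the 6 semaphorins ran from -2.48 for Sema7a to -1.29 for Sema4c.

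Plexins, the receptors of semaphorins, held the largest summed level of any family, at 379 and 380.0 TPM in MGS and 474 and 488 TPM in CV at day 5. Most of that was Plxnb2, a broadly expressed B-type plexin, at 194 and 193 TPM in MGS against 297 and 296 TPM in CV at day 5, a log2 change of -0.62 (SE 0.17, adjusted p = 0.0221) that was lost without any 1 of the 4 day 5 libraries (adjusted p from 0.0767 to 0.103). Plxnb3, a plexin known from oligodendrocytes and from Sema5a binding, was at 6.36 and 6.54 TPM against 0.973 and 0.678 TPM, a log2 change of 2.03 (SE 0.18, adjusted p = 8.27e-05). Plxna1 was the reverse, at 26.4 and 26.6 TPM against 73.2 and 82.1 TPM, a log2 change of -1.51 (SE 0.26, adjusted p = 0.00263). So 2 plexins were lower at day 5 and 4 were higher. The other 3 higher ones were Plxna2, Plxnc1 and Plxnd1, with log2 changes of 0.85, 0.84 and 0.99. Of these, Plxnd1 lost its call only when MGS day 5 replicate 1 was omitted (adjusted p = 0.0572), Plxna2 lost it without 5 libraries (0.0666 to 0.167) and Plxnc1 without 6 (0.0717 to 0.187). All 8 oligodendrocyte markers were higher in MGS at day 5.

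All 9 plexins were higher in MGS at day 32 in TPM, and 6 were higher and 3 lower after the correction. Plxnb1, the receptor of Sema4d, had 116 and 124 TPM in MGS against 22.4 and 35.4 TPM in CV, a log2 change of 2.04 (SE 0.19, adjusted p = 8.86e-05). Plxna4, a co-receptor for class 3 and class 6 semaphorins, had 12.7 and 12.4 TPM against 1.44 and 2.03 TPM, a log2 change of 2.32 (SE 0.17, adjusted p = 2.42e-05). Plxnb3 had 8.27 and 8.63 TPM against 0.294 and 0.7295 TPM, a log2 change of 2.66 (SE 0.18, adjusted p = 1.48e-05). The lowest MGS library was more than 3 times the highest CV library in each. Plxna2, Plxna3 and Plxnd1 changed by 2.21, 1.88 and 1.95, and these 6 genes had corrected changes between 0.51 for Plxnb1 and 1.43 for Plxnb3, all called. At day 5 Plxnb1 was called higher only after the correction (0.28 in TPM and 0.37 corrected). The other 3 turned over. Plxna1, at 40.1 and 45.5 TPM against 15.2 and 28.99 TPM, changed by 0.99 in TPM and by -0.58 after the correction. Plxnb2, at 284 and 312 TPM against 169 and 252 TPM, changed by 0.53 and -0.77, and Plxnc1 by 0.87 and -0.498. With MGS day 32 replicate 2 omitted the TPM calls of all 3 were lost (adjusted p = 0.0742, 0.142 and 0.12 for Plxna1, Plxnb2 and Plxnc1). Those of Plxnb2 and Plxnc1 were lost without MGS day 32 replicate 1 too (0.0748 and 0.0891), that of Plxnc1 without CV day 32 replicate 1 (0.0713), and that of Plxnb2 without either MGS day 5 library (0.0556 each).

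The neuropilins, which bind class 3 semaphorins on behalf of plexins, were both abundant. Nrp1 was at 14.8 and 14.6 TPM in MGS and 37.1 and 50.95 TPM in CV at day 5, a log2 change of -1.505 (SE 0.25, adjusted p = 0.00224). Later, at day 32, it was at 40.9 and 38.9 TPM against 22.6 and 38.4 TPM, with a log2 change of 0.42 (SE 0.25, adjusted p = 0.172) and no call. Nrp2 did not differ by the test at day 5, at 52.9 and 52.6 TPM against 31.1 and 42.8 TPM, with a log2 change of 0.52 (SE 0.63, adjusted p = 0.52). Its day 32 value of 2.11 (SE 0.63, adjusted p = 0.02) rested on 60.9 and 61.8 TPM against 5.41 and 31.4 TPM, where CV replicate 1 lay far below replicate 2. It missed the threshold with either MGS day 32 library omitted (adjusted p = 0.077 and 0.0802) and after the correction (0.85, adjusted p = 0.153).

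**Figure D3:**
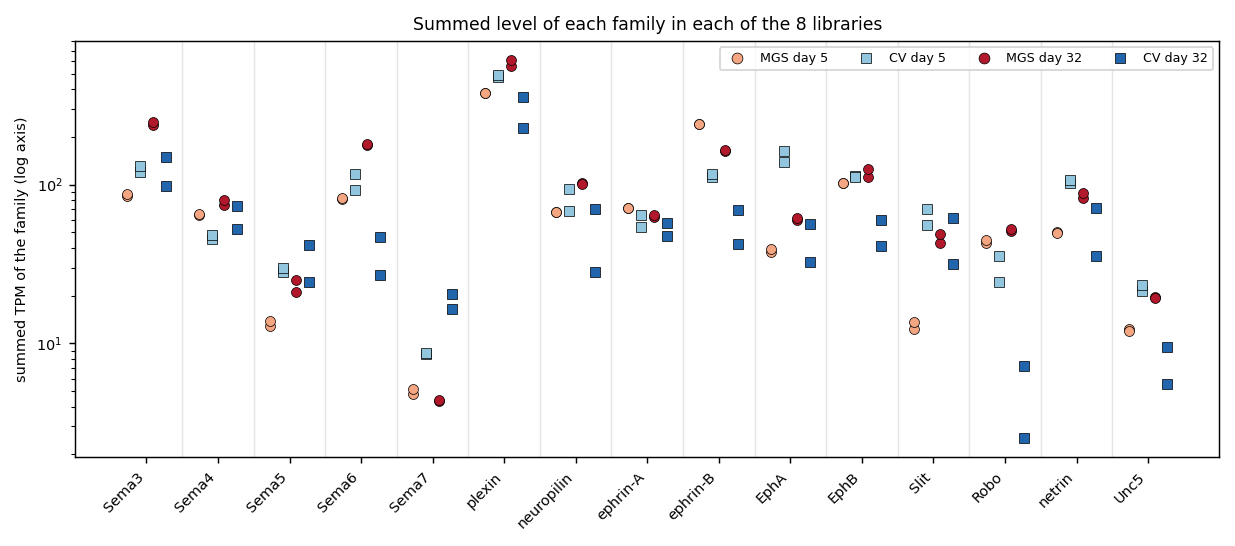
Summed TPM of each family (log axis) in each of the 8 libraries, with circles for MGS and squares for CV, pale at day 5 and dark at day 32. Ephrin-B sums lie at 241 and 242 TPM in MGS against 112 and 117 TPM in CV at day 5, EphA sums run the other way at 37.6 and 39.2 against 139 and 163, and Robo sums lie at 50.7 and 52.5 against 2.52 and 7.23 at day 32.

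Ephrins gave the member with the largest change at day 5. Efnb3, a B-type ephrin known as a midline and myelin ligand, was at 95.97 and 94.8 TPM in MGS and 3.77 and 3.97 TPM in CV, a ratio of means of 24.6 and a log2 change of 4.31 (SE 0.16, adjusted p = 1.52e-06). At day 32 it was at 53.6 and 54.6 TPM against 3.36 and 4.63 TPM, a log2 change of 3.47 (SE 0.16, adjusted p = 3.05e-06). The 4 CV libraries lay within 3.36 to 4.63 TPM over both days. Efnb1 had 80.1 and 82.4 TPM against 55.3 and 54.8 TPM at day 5, a log2 change of 0.55 that was lost without any 1 of 6 libraries (adjusted p from 0.0839 to 0.179) and after the correction (0.27). The day 32 libraries had 53.6 and 55.7 TPM against 16.4 and 25.8 TPM, a log2 change of 1.36 (SE 0.19, adjusted p = 0.000645). Efnb2, the ligand that marks arterial endothelium and is also made by astrocytes, was at 65.02 and 64.3 TPM against 53.02 and 58.5 TPM at day 5, with no call in TPM (0.21) and a higher call after the correction (0.32). At day 32 it was at 56.9 and 55.7 TPM against 22.4 and 38.7 TPM, a log2 change of 0.91 (SE 0.23, adjusted p = 0.00901) that missed the threshold with MGS day 32 replicate 1 omitted (adjusted p = 0.0501) and became -0.0093 after the correction.

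A-type ephrins split into members higher and members lower in MGS. Efna1, a preferred ligand of Epha2, was at 24.5 and 24.8 TPM against 5.55 and 4.69 TPM at day 5, a log2 change of 2.07 (SE 0.16, adjusted p = 4.71e-05), and at 21.8 and 22.6 TPM against 3.97 and 4.92 TPM at day 32, a log2 change of 2.099 (SE 0.16, adjusted p = 2.95e-05). Efna2 was at 12.4 and 12.7 TPM against 1.39 and 2.97 TPM and then 8.62 and 8.17 TPM against 1.36 and 1.95 TPM, with log2 changes of 2.14 and 1.83. Both genes were higher in MGS at both days with no call between the days in either culture. Efna3 was at 3.54 and 3.34 TPM against 11.4 and 10.9 TPM at day 5, a log2 change of -1.45 (SE 0.23, adjusted p = 0.0018), and its day 32 values overlapped. Efna5, a ligand that patterns topographic maps, was at 6.73 and 7.37 TPM against 21.6 and 29.1 TPM at day 5, a log2 change of -1.696 (SE 0.36, adjusted p = 0.00652) that missed the threshold when CV day 5 replicate 2 was omitted (adjusted p = 0.0516). At day 32 Efna5 overlapped between the cultures too, and the corrected changes of Efna3 and Efna5 there were -0.72 and -0.58, called lower. The ligand Efna4 was higher at day 5, by 0.61, and lower at day 32, by -0.65 (SE 0.15, adjusted p = 0.0056). The first of these was lost after the correction (0.17) and without MGS day 5 replicate 1 or 2 or CV day 5 replicate 1 (adjusted p from 0.0598 to 0.0909), and the second without MGS day 32 replicate 1 (0.0545).

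EphA receptors as a family summed to 37.6 and 39.2 TPM in MGS and 139 and 163 TPM in CV at day 5. Epha2, a receptor common in epithelial and proliferating cells, made up much of the gap, at 8.803 and 8.81 TPM against 86.6 and 85.6 TPM, 9.78 times higher in CV on means, with a log2 change of -3.15 (SE 0.19, adjusted p = 1.35e-05). Epha4, the best known Eph receptor of reactive astrocytes and of axon repulsion, was at 12.2 and 12.8 TPM against 38.02 and 59.03 TPM, a log2 change of -1.84 (SE 0.33, adjusted p = 0.00293). Epha5 was at 2.73 and 3.32 TPM against 6.91 and 9.6 TPM, a log2 change of -1.19 (SE 0.28, adjusted p = 0.0102) that missed the threshold with either MGS day 5 replicate 1 (adjusted p = 0.0735) or CV day 5 replicate 2 (0.0723) omitted. Thus 3 of 6 EphA members were lower, and 2 were higher. Epha7 was at 8.01 and 8.36 TPM against 3.67 and 3.58 TPM, a log2 change of 0.99 (SE 0.18, adjusted p = 0.00345). Epha1 was at 3.13 and 3.25 TPM against 0.5803 and 0.414 TPM, a log2 change of 1.49, and 236 bases of its exons overlap exons of Zyx on the other strand, which stood at 102 to 271 TPM across the libraries. Whether reads were assigned by strand was not given in the sources used here, so the level of Epha1 is uncertain.

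At day 32 Epha2 was the only EphA receptor called lower in TPM, at 7.57 and 7.32 TPM against 18.4 and 27.3 TPM, a log2 change of -1.47 (SE 0.19, adjusted p = 0.0004). Epha1, at 2.74 and 2.85 TPM against 2.25 and 2.94 TPM, overlapped between the cultures and was not called in TPM (0.085), but it was called lower after the correction (-0.50), by median-of-ratios scaling (-0.37) and by quantile normalization (-0.89). Epha7 was at 8.77 and 9.697 TPM against 1.09 and 1.86 TPM, a log2 change of 2.06 (SE 0.18, adjusted p = 6.15e-05). Epha3 was at 6.196 and 6.59 TPM against 0.5099 and 2.67 TPM, a log2 change of 1.65 (SE 0.37, adjusted p = 0.00608), with the 2 CV libraries far apart and no call after quantile normalization (0.70, adjusted p = 0.0627). Epha4 and Epha5 had turned round from day 5. Epha4 was at 27.8 and 28.3 TPM against 8.87 and 18.5 TPM, with a log2 change of 1.07 (SE 0.33, adjusted p = 0.022), and Epha5 at 6.88 and 6.897 TPM against 1.3 and 3.02 TPM, with a log2 change of 1.38 (SE 0.28, adjusted p = 0.00363). After the correction their changes were -0.14 and 0.16, with no call, and Epha4 also missed the threshold when MGS day 32 replicate 1 (adjusted p = 0.0843), MGS day 32 replicate 2 (0.0908) or CV day 32 replicate 1 (0.0673) was omitted. The higher Epha4 at day 32 therefore depended on the scaling, and the lower Epha4 at day 5, with a corrected change of -1.45, did not.

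Among EphB receptors, Ephb4, the partner of Efnb2 in vessels, was the member higher at day 5, at 41.8 and 42.1 TPM against 23.1 and 21.8 TPM and a log2 change of 0.87 (SE 0.17, adjusted p = 0.00498). It was also higher at day 32, at 34.3 and 39.99 TPM against 9.98 and 13.9 TPM and a log2 change of 1.57 (SE 0.17, adjusted p = 0.000194). Ephb6, a receptor without kinase activity, was at 20.8 and 20.3 TPM against 16.6 and 14.9 TPM at day 5 with no call. By day 32 it was at 37.02 and 41.4 TPM against 5.37 and 7.18 TPM, a log2 change of 2.48 (SE 0.17, adjusted p = 1.62e-05), with changes from day 5 of 0.897 in MGS and -1.21 in CV. The rise in MGS missed the threshold with MGS day 5 replicate 1 or 2 or MGS day 32 replicate 2 omitted (adjusted p from 0.0519 to 0.0644). Ephb1 was lower at day 5, at 6.301 and 6.86 TPM against 15.2 and 16.02 TPM and a log2 change of -1.13 (SE 0.18, adjusted p = 0.00187). Ephb2 and Ephb3 were lower by -0.88 and -0.603, and the call was lost without 3 of the 4 day 5 libraries for Ephb2 (all but CV replicate 1, adjusted p from 0.0593 to 0.0697) and without any of the 4 for Ephb3 (0.071 to 0.121). At day 32, Ephb1 and Ephb3 were called higher in TPM, by 0.58 and 0.48, and lower after the correction, by -0.28 and -0.47, and Ephb2 was not called in TPM (0.25) and lower after the correction (-1.397). Without any 1 of the 4 MGS libraries the TPM calls of both were lost (adjusted p from 0.0524 to 0.113 for Ephb1 and 0.0762 to 0.193 for Ephb3), and that of Ephb3 also without CV day 5 replicate 1, CV day 5 replicate 2 or CV day 32 replicate 1 (0.0534, 0.0536 and 0.0652).

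Of the Slits and Robos in TPM, Slit2 and Slit3 were lower in MGS at day 5, and Slit1, Robo1 and Robo2 were higher at day 32. Slit3 was at 4.31 and 4.26 TPM in MGS and 31.4 and 35.3 TPM in CV at day 5, a log2 change of -2.699 (SE 0.26, adjusted p = 0.000139). Slit2 was at 7.802 and 8.83 TPM against 23.96 and 34.6 TPM, a log2 change of -1.68 (SE 0.32, adjusted p = 0.00432). At day 32 the values of both secreted ligands overlapped between the cultures, at 14.1 and 16.5 TPM against 16 and 28.96 TPM for Slit3 and 26.99 and 30.3 TPM against 15.6 and 32.3 TPM for Slit2. After the correction both were called lower at day 32 too, by -1.53 and -1.23. Slit1 stayed under 2.1 TPM in every library, and its day 32 values of 1.48 and 2.06 TPM against 0.264 and 0.373 TPM gave a log2 change of 1.07 in TPM and -0.12, with no call, after the correction.

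Robo1, the most abundant Robo in MGS and a receptor of Slits, was at 33.3 and 35.7 TPM in MGS against 14.02 and 20.2 TPM in CV at day 5, a log2 change of 0.99 (SE 0.36, adjusted p = 0.0569) that missed the threshold in TPM and passed it after the correction (1.33, adjusted p = 0.000491). At day 32 it was at 40 and 42.7 TPM against 0.914 and 3.39 TPM, a ratio of means of 19.2 and a log2 change of 3.87 (SE 0.36, adjusted p = 8.56e-05). Robo2 was at 10.6 and 9.71 TPM against 1.61 and 3.84 TPM at day 32, a log2 change of 1.65 (SE 0.31, adjusted p = 0.00241) and 0.28 after the correction, which was not called once the replicate block was added (adjusted p = 0.0519). Both receptors fell in CV from day 5 to day 32, with log2 changes of -2.62 for Robo1 and -1.92 for Robo2. Robo4, a receptor of endothelial cells, was listed at 1.62 and 1.45 TPM in MGS and 0 and 0.0945 TPM in CV at day 5, a difference of 1.28 in log2(TPM + 1). At day 32 it was at 0.119 and 0.1497 TPM in MGS and listed at 0 in both CV libraries, and there the correction gave a lower call (-0.78) although both CV values were 0. Brain endothelium markers summed to 231 to 235 TPM in MGS and 51.1 to 65.9 in CV at day 5, and to 195 to 209 and 67.1 to 114 at day 32. Cdh5 held most of the MGS sums, at 168 and 166 TPM at day 5 and 119 and 135 at day 32. Of the 8 markers, 5 were called higher in MGS and 1 lower at day 5, and 3 and 0 at day 32. The sums hide a split within MGS, where 2 of the 8 rose and 4 fell from day 5 to day 32. Cldn5 went from 23.76 and 23.35 TPM to 0.0549 and 0.111, and Pecam1 from 6.12 and 5.62 to 0.0707 and 0.0718.

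Among the netrins, Ntn5 was higher in MGS at both days, and Ntn1 and Ntn4 were lower at day 5. Ntn5, a little studied secreted netrin, was at 12.4 and 10.7 TPM in MGS and 0.0696 and 0 TPM in CV at day 5, and at 5.55 and 5.01 TPM and 0.137 and 0.0905 TPM at day 32. The differences in log2(TPM + 1) were 3.597 (SE 0.13, adjusted p = 1.66e-06) and 2.49 (SE 0.13, adjusted p = 5.97e-06). Its exons share 519 bases with exons of Sec1 on the other strand, which was at 2.86 and 2.65 TPM in MGS and 0.133 and 0.281 TPM in CV at day 5, and the reads of the 2 genes cannot be told apart there. Ntn1, the netrin of the midline, was at 18.7 and 18.4 TPM against 42.1 and 44.7 TPM at day 5, a log2 change of -1.18 (SE 0.22, adjusted p = 0.00399). Ntn4, a laminin-like netrin of basement membranes, was at 11.99 and 12.99 TPM against 54.4 and 57.5 TPM, a log2 change of -2.08 (SE 0.36, adjusted p = 0.00244). At day 32 neither was called in TPM, with log2 changes of 0.55 and 0.56, while after the correction Ntn1 was called lower (-0.65) and Ntn4 was not called (-0.07). Ntn3 was higher at day 32 in TPM, by 1.28, and not called after the correction (0.21). Its exons share 89 bases with exons of Tbc1d24 on the same strand, and the reads cannot be told apart there. Tbc1d24 was at 9.668 and 10.03 TPM in MGS and 2.975 and 5.855 TPM in CV at day 32.

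Of the Unc5 receptors, which turn netrin into a repellent, Unc5b was at 3.44 and 3.47 TPM in MGS and 16.9 and 17.6 TPM in CV at day 5, a log2 change of -2.03 (SE 0.20, adjusted p = 0.000148). Its day 32 values were 2.74 and 2.69 TPM against 3 and 4.86 TPM with no call, and after the correction it was called lower, by -1.598. Unc5c was the reverse, at 7.14 and 7.08 TPM against 3.68 and 5.04 TPM at day 5, called higher only after the correction (1.14), and 16.1 and 15.9 TPM against 1.97 and 3.59 TPM at day 32, a log2 change of 2.204 (SE 0.23, adjusted p = 0.00016). Unc5a lay at 0.540 to 1.68 TPM in all libraries. Its day 5 call (0.51, corrected 0.29) was lost without any 1 of 6 libraries (adjusted p from 0.0568 to 0.155), and 34 bases of its exons overlap Hk3 on the other strand. At day 32 Unc5a was not called in TPM (0.0029) and was called lower after the correction (-0.85). Its values there were only 0.777 and 0.811 TPM in MGS and 0.540 and 1.08 TPM in CV.

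**Figure D4:**
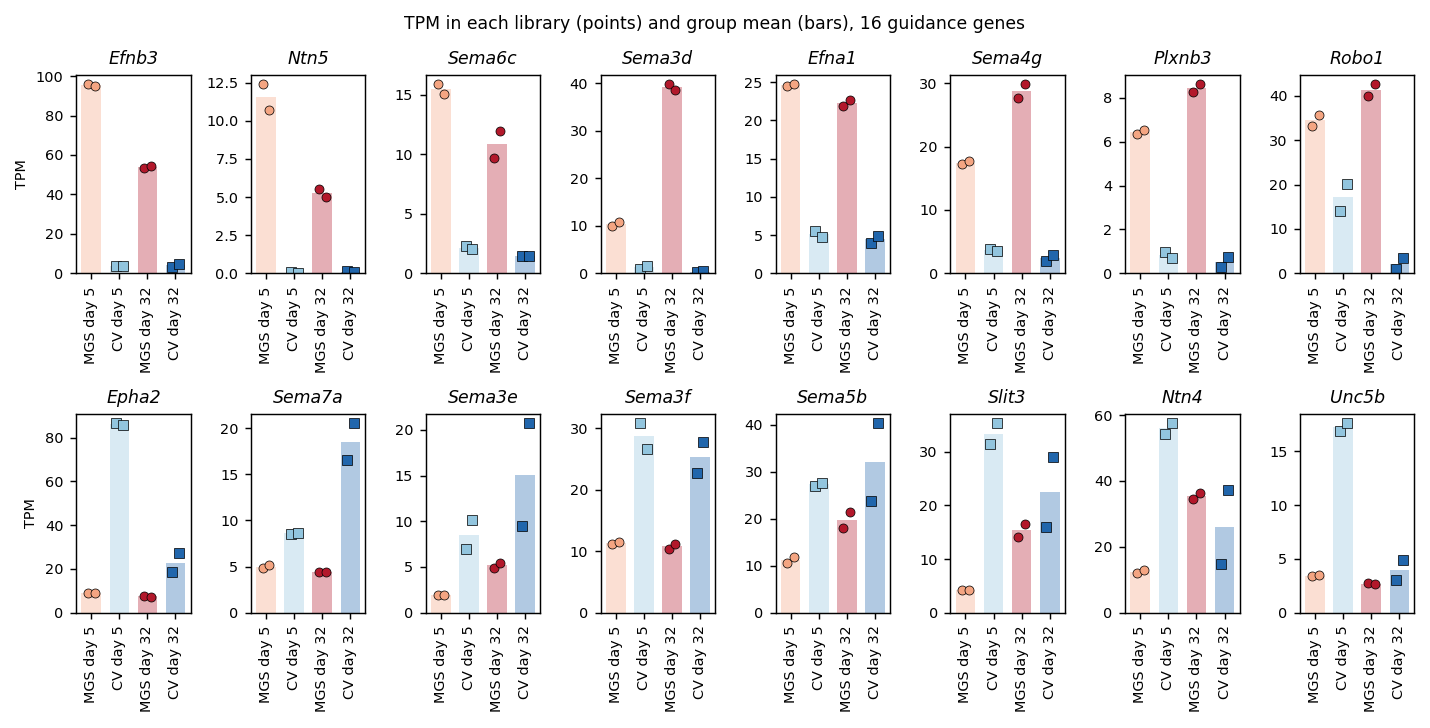
TPM of 16 guidance genes in each library (points, circles for MGS and squares for CV) with the group mean (bars from 0), in the order MGS day 5, CV day 5, MGS day 32, CV day 32, each panel with its own scale. Efnb3, Ntn5, Sema6c, Sema3d, Efna1, Sema4g and Plxnb3 are high in both MGS groups, Robo1 falls to 0.914 and 3.39 TPM in CV at day 32, Epha2 stands at 86.6 and 85.6 TPM in CV at day 5, and Slit3, Ntn4 and Unc5b are low in MGS at day 5.

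Read over both days, 16 members were higher in MGS at each, or 25.8%, where 15.6% of all genes tested were called so, and 5 were lower at each, where 6.27% of genes were. Another 9, or 14.5%, were lower at day 5 and higher at day 32, against 9.31% of all genes, and 2 were higher and then lower, Efna4 and Sema4c, against 3.03%. The call was at day 5 alone in 13 members (21%) and at day 32 alone in 17 (27.4%), and 0 were called at neither day, against 14.7%, 33.4% and 17.7% of all genes. The 9 that crossed from lower to higher were Epha4, Epha5, Ephb1, Ephb3, Plxna1, Plxnb2, Sema4b, Sema4f and Sema6a. After the length and GC correction 0 members crossed that way, against 6.27% of all genes, while 16 were higher at both days and 17 lower at both, against 14.6% and 21.7%. In TPM and in 4 other scalings (median-of-ratios, quantile normalization, FPKM and the length and GC correction) 13 kept a higher call at both days, namely Efna1, Efna2, Efnb3, Epha7, Ephb4, Ntn5, Plxna2, Plxnb3, Plxnd1, Sema3a, Sema3d, Sema4g and Sema6c. The 5 lower at both days in all of these were Epha2, Sema3e, Sema3f, Sema5b and Sema7a. The share of all genes that kept a call in all of these is not given here, so the 13 and the 5 are description only. The 2 days use different libraries on both sides.

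From day 5 to day 32 more members rose than fell in MGS and more fell than rose in CV, in TPM. In MGS 24 members rose and 7 fell, where 35% and 7.53% of all genes did, and in CV 6 rose and 30 fell, where 16% and 37.7% did. After the correction the counts were 18 and 25 in MGS, where 22% and 25.9% of genes were called, and 18 and 25 in CV, where 25.1% and 36.2% were, the same counts of members in both cultures. In MGS, Plxna4 rose from 2.04 and 2.49 TPM to 12.7 and 12.4 TPM, a log2 change of 2.06 (SE 0.17, adjusted p = 0.000219). Sema3b rose from 44.5 and 45.3 TPM to 139 and 148 TPM, a log2 change of 1.65 (SE 0.12, adjusted p = 0.000166). Sema3d rose by 1.81, Sema3c by 1.93, Slit3 by 1.62 and Nrp1 by 1.38, each also after the correction (0.897, 1.16, 1.19 and 0.88). The 7 that fell in MGS were Efnb1, Efnb3, Ntn5, Robo4, Sema4c, Sema6c and Unc5a, and Ntn5 changed by -0.996 (SE 0.13, adjusted p = 0.00155). The count of rises in MGS fell to between 8 and 12 without any 1 of the 4 MGS libraries, and that of falls to 2.

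In CV the largest fall was that of Robo1, from 14.02 and 20.2 TPM to 0.914 and 3.39 TPM, a log2 change of -2.62 (SE 0.36, adjusted p = 0.00107). Robo2 changed by -1.92, Unc5b by -1.91, Epha2 by -1.89, Ephb1 by -1.88 and Plxna1 by -1.83, and these 5 remained called after the correction (-1.07, -1.24, -1.598, -1.46 and -0.96). The 6 that rose in CV were Efna4, Epha1, Sema4a, Sema4c, Sema4d and Sema7a, 4 of them semaphorins. Sema4d rose from 7.71 and 9.44 TPM to 23.8 and 35.6 TPM, a log2 change of 1.66 (SE 0.21, adjusted p = 0.000748), and Sema4c from 7.08 and 7.66 TPM to 16.1 and 21.4 TPM, a log2 change of 1.23 (SE 0.17, adjusted p = 0.00103). Over the same days the microglia markers summed to 88.6 to 105 TPM and then 3758 to 4088 TPM in CV, and their part in these rises was not tested. Without CV day 5 replicate 2 the number of falls was 18, and without CV day 32 replicate 1 the number of rises was 10.

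The difference between the cultures itself changed with time in 49 members. In the interaction of culture and day 41 were higher and 8 lower, where 49.7% and 12.3% of all genes were called, and 25 and 21 after the correction, where 32.1% and 25.8% were. A higher interaction call held in all 4 other scalings in 20 members, and Sema6d (3.08 (SE 0.44, adjusted p = 0.00125)), Epha4 (2.91 (SE 0.46, adjusted p = 0.00188)), Robo1 (2.88 (SE 0.52, adjusted p = 0.00305)) and Plxna4 (2.70 (SE 0.24, adjusted p = 0.000172)) were among them. For Epha2, Slit3, Ntn4, Unc5b, Sema3c and Nrp1 the interaction was positive as well, at 1.68, 2.23, 2.64, 1.65, 2.33 and 1.93. These genes were lower in MGS at day 5, and the difference was smaller in size by day 32. In Ntn4 and Nrp1 it had changed sign in TPM, to 0.56 and 0.42, with no call. The 8 lower ones, Efna4, Efnb3, Epha1, Ntn5, Robo4, Sema4a, Sema4c and Sema7a, kept that call in all 4 other scalings, while Efnb3 lost it without any 1 of the 4 MGS libraries (adjusted p from 0.0622 to 0.0703). The share of all genes that kept an interaction call in all of these scalings is not given here.

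The related genes in the lists given here, which hold surface and secreted partners as well as effectors inside the cell, did not share 1 direction at day 5. At day 32 they were mostly higher in TPM, as were the guidance genes and 52.8% of all genes tested. Of all genes, 22.5% were called higher and 26.4% lower at day 5, and 14.8% were called lower at day 32. After the correction 30.7% were called higher and 39.4% lower at day 32, and no list was tested against these shares. Of 20 semaphorin partners and effectors, 1 was higher and 7 lower at day 5, and 16 were higher and 3 lower at day 32 (7 and 7 after the correction). Rnd1, a GTPase that binds plexins, was at 10.6 and 10.2 TPM in MGS and 91.8 and 79.5 TPM in CV at day 5, a log2 change of -2.92 (SE 0.13, adjusted p = 3.29e-06), and changed by -2.59 at day 32. Dpysl3, a collapsin response mediator, was at 230.5 and 241 TPM against 10.7 and 32.1 TPM at day 32, a log2 change of 3.59 (SE 0.42, adjusted p = 0.000248). Of 17 Eph and ephrin effectors, 3 were higher and 6 lower at day 5, and 11 and 2 at day 32 (6 and 7 corrected). Grb10, an adaptor, was at 158 and 162 TPM against 19.7 and 26.2 TPM at day 5 and 192 and 190.3 TPM against 13.3 and 21.2 TPM at day 32, with log2 changes of 2.76 and 3.43. Ngef, an exchange factor that acts downstream of EphA receptors, changed by 1.41 and 2.71.

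Of 14 Slit and Robo effectors and co-receptors, 2 were higher and 5 lower at day 5 and 10 and 2 at day 32 (4 and 6 corrected), and Enah, an actin regulator, changed by -1.28 and 2.63. Of 12 netrin receptors and effectors outside the 62 members, 5 were higher and 3 lower at day 5 and 10 and 0 at day 32 (7 and 2 corrected). Draxin, a secreted netrin-binding repellent, changed by 1.44 and 2.94. Of 5 netrin-G genes and their ligands, 0 were higher and 1 was lower at day 5 and 3 and 0 at day 32 (2 and 2 corrected). Of 8 genes of the Nogo receptor system, 1 and 3 were called at day 5 and 5 and 2 at day 32 (5 and 3 corrected), with Tnfrsf19 higher by 0.92 and 3.65. The shares of all genes, 52.8% higher and 14.8% lower in TPM at day 32, stand beside these lists too.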

How the data were processed

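Total RNA of 8 libraries was sequenced, and groups and replicate numbers came from the sample titles. The submitters' processing notes list StringTie 1.3.4d, HISAT2 2.1.0 and bcl2fastq, and the builds mm10 and hg38 with no roles. The annotation release, and whether strand was used, is not given in the sources used here. The authors deposited, per the file headers, TPM, FPKM and coverage (a signal per base) for each gene in each library, and a series-wide table with TPM. Coverage was used only for depth, and FPKM only in an alternative. Rows of 1 gene ID were summed, and each member had 1 row per library, with coordinates in mm10.

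Values were taken as log2(TPM + 1), which understates changes of low genes. Genes with at least 1 TPM in at least 2 libraries were tested. The 4 group means were fitted in 1 model with limma 3.58.1 under R 4.3.3 (4 residual and 3.3 prior degrees of freedom, variance trend, two-sided), with Benjamini-Hochberg adjustment over all 14904 genes, and genes with an adjusted p under 0.05 were called. Read counts were not used, since TPM keeps no depth, and the spread between libraries is the error given. The 5 contrasts share libraries. With 2 libraries against 2, no exact permutation test of 1 gene can pass the threshold, and none was made.

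Alternatives, 12 settings and each of 8 libraries left out, were a pseudocount of 0.1, no filter, a filter of 5 TPM, median-of-ratios scaling, quantile normalization, FPKM, a length and GC correction, a replicate block, both together, the groups of the contrast alone, no variance trend and the series-wide table. The correction fitted, in each library, a natural spline with 5 degrees of freedom of each gene's deviation from its mean on the length and GC content of its longest GENCODE M21 transcript, available for 14808 genes (99.4%) and all 62 members. The fit was tested on simulated data. Promoters came from RefSeq, GRCm38.p6, where 54 of 62 members matched by symbol. Exons of 4 members (Epha1, Ntn3, Ntn5 and Unc5a) overlapped those of another gene tested.

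The members and gene lists were chosen with earlier results of these data known. Any member could be named, with full statistics first for those called with a log2 change of at least 1 whose higher group averaged 5 TPM or more, and of each pathway list up to 3 called genes with the largest change at either day. Some results of these lists are not reported here. No fold was taken against a group listed at 0.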

Additional observations from a re-analysis of the deposited data

Results flagged for a closer look

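The difference between MGS and CV changed from day 5 to day 32 in 49 of the 62 members, by limma's interaction of culture and day (adjusted p under 0.05 over all genes tested), where 49.7% of all genes tested were higher and 12.3% lower. The values here are day 32 difference minus day 5 difference in log2(TPM + 1). In 25 members the change was positive and held after the length and GC correction: Sema6d 3.08, Epha4 2.91, Robo1 2.88, Plxna4 2.70, Ntn4 2.64, Epha5 2.56, Sema3d 2.53, Plxna1 2.50, Sema6a 2.47, Sema3c 2.33, Slit3 2.23, Ephb6 2.11, Nrp1 1.93, Plxna3 1.91, Sema4f 1.82, Efna5 1.80, Ntn1 1.73, Ephb1 1.72, Epha2 1.68, Unc5b 1.65, Sema3b 1.55, Sema6b 1.49, Sema4b 1.32, Efna3 1.14 and Sema4g 1.12. In 11 members it was positive in TPM and not called after the correction: Robo2 2.23, Epha3 2.06, Slit2 2.01, Plxnb1 1.77, Slit1 1.28, Plxnb2 1.14, Ephb3 1.08, Epha7 1.07, Ntn3 0.94, Efnb1 0.81 and Ephb4 0.70. In 5 members it was positive in TPM and called negative after the correction: Unc5c 1.59, Plxna2 1.36, Ephb2 1.13, Sema5a 0.99 and Plxnd1 0.96. The 8 negative changes, which all held after the correction, were Sema4c -1.92, Epha1 -1.40, Efna4 -1.26, Sema7a -1.18, Sema4a -1.14, Ntn5 -1.10, Robo4 -1.09 and Efnb3 -0.83. The shares of all genes that kept, lost or reversed an interaction call after the correction are not given here. For Robo4 the corrected value, -2.01, is not to be relied on. Both CV libraries were listed at 0 at day 32, and the correction still moved its difference there below 0.

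Calls of 10 of the 49 members were lost with 1 library left out. They were lost without any 1 of the 4 MGS libraries, and in some genes CV day 5 libraries too, in Efna3 (also either CV day 5 library, adjusted p from 0.0521 to 0.0758), Efna5 (also CV day 5 replicate 2, 0.0515 to 0.0673), Plxna2 (also CV day 5 replicate 2, 0.0544 to 0.0667), Ntn3 (also CV day 5 replicate 1, 0.0602 to 0.0876), Plxnd1, Efnb1 and Ephb4 (also either CV day 5 library, 0.0662 to 0.149) and Efnb3 (0.0622 to 0.0703). Sema5a lost its call without MGS day 5 replicate 1 or 2, MGS day 32 replicate 2 or CV day 5 replicate 2 (0.0569 to 0.0673), and Ephb2 without MGS replicate 2 of either day (0.0512 and 0.0561).

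Among these, Sema6d had a day 5 difference of -0.27 and a day 32 difference of 2.81, and Slit3 one of -2.70 that ended at -0.47. Sema4c crossed from 1.37 to -0.55. In Efnb3 and Ntn5 a large difference in favour of MGS at day 5, 4.31 and 3.60, was smaller at day 32, at 3.47 and 2.49. The part of transcript length, of the spread in CV at day 32 and of other cell types in these changes was not tested beyond the correction given.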

How the results depend on the processing

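Counts of members called higher and lower moved by over 1.5 times in these settings. At day 32, from 41 and 8, they were 25 and 25 with the length and GC correction, 24 and 25 with the replicate block added to it, and the lower count was 14 with median-of-ratios scaling and 20 with quantile normalization. For MGS over time, from 24 and 7, the higher count was 37 with the groups of the contrast alone. The lower count was 15 there, 4 with a pseudocount of 0.1, 21 with median-of-ratios scaling, 23 with quantile normalization, 18 with FPKM, 25 with the correction and 24 with the block added. For CV over time, from 6 and 30, the higher count was 12, 11, 10, 18 and 18 with median-of-ratios scaling, quantile normalization, FPKM, the correction and the correction with the block, and the lower count was 17 with the groups of the contrast alone. In the interaction, from 41 and 8, the counts were 25 and 21 with the correction and 26 and 20 with the block added, and the lower count was 5 with the filter of 5 TPM, 15 with median-of-ratios scaling and 16 with quantile normalization. Leaving out 1 library gave 15 to 27 higher and 17 to 27 lower at day 5, 32 to 46 and 3 to 12 at day 32, 8 to 32 and 2 to 9 in MGS over time, 6 to 10 and 18 to 42 in CV over time, and 32 to 46 and 7 to 10 in the interaction. The lowest count at day 32, 3, came without MGS day 32 replicate 1.

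Direction reversed in some called members, and the cause was not tested beyond the construction of each setting. With the length and GC correction, with or without the block, the day 32 changes became -0.0093 (Efnb2), -0.14 (Epha4), -0.28 (Ephb1), -0.47 (Ephb3), -0.58 (Plxna1), -0.77 (Plxnb2), -0.50 (Plxnc1), -0.19 (Sema4a), -0.17 (Sema4b), -0.40 (Sema5a), -0.089 (Sema6a) and -0.12 (Slit1). The interactions became -0.58 (Epha7), -0.71 (Ephb2), -0.0012 (Ntn3), -0.70 (Plxna2), -0.16 (Plxnb2), -0.46 (Plxnd1), -1.15 (Sema5a), -0.06 (Slit2) and -0.44 (Unc5c). Over time they became -0.031 (Epha5) and -0.047 (Unc5c) in MGS and 0.018 (Plxna2), 0.29 (Plxna4), 0.065 (Plxnb1) and 0.19 (Plxnb2) in CV. Median-of-ratios scaling gave -0.10 (Ephb3), -0.11 (Plxnb2), -0.038 (Sema4a) and -0.011 (Sema4b) at day 32 and -0.095 for the Ephb4 interaction. Quantile normalization gave -0.44 (Ephb1), -0.43 (Ephb3), -0.054 (Plxnc1), -0.58 (Sema4a) and -0.30 (Sema4b) at day 32 and -0.11 for the Ephb4 interaction.

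The replicate block alone changed no call of a called member and gave 23 higher and 24 lower at day 5 and 42 and 8 at day 32. The numbers are only shared: deviations of same-numbered libraries correlated from -0.13 to 0.44 between groups. Values under 1 TPM, depth and 2 libraries per group limit what can be told of Robo4, Unc5a, Slit1 and the CV level of Ntn5. The libraries of CV at day 32 stood apart by more than those of any other group, and all groups shared 1 estimate of the spread.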
